A study of Saccharomyces cerevisiae with 4 samples.

Results

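The isozymes of 3 enzymes of yeast carbon metabolism were examined in strains labelled as knockouts of a sulfur regulator. They are the pyruvate decarboxylase genes PDC1 (YLR044C), PDC5 (YLR134W) and PDC6 (YGR087C), the enolase genes ENO1 (YGR254W) and ENO2 (YHR174W), and the aldehyde dehydrogenase genes ALD4 (YOR374W) and ALD6 (YPL061W). These 7 genes were picked by their systematic names from the 6260 open reading frames (ORFs) of the deposited table, by a rule that holds no measured value but was written with earlier results of these data known. All 28 of their values, 7 genes on 4 arrays, were measured.

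Enolase makes phosphoenolpyruvate late in glycolysis, pyruvate decarboxylase turns pyruvate into acetaldehyde on the way to ethanol, and aldehyde dehydrogenase oxidises acetaldehyde to acetate. When Saccharomyces cerevisiae is exposed to cadmium and needs sulfur for glutathione, it is known to replace abundant enzymes by isozymes with fewer methionine and cysteine residues: Pdc6 takes the place of Pdc1, Eno1 that of Eno2 and Ald6 that of Ald4. This switch is called sulfur sparing and depends on Met4, the transcriptional activator of the sulfur genes. Met4 does not bind DNA well alone. Cbf1, Met31 and Met32 recruit it to promoters, and Met28 is a cofactor in these complexes.

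Strains labelled as knockouts of CBF1, MET28, MET31 or MET32 were each compared with wild type on 2-colour arrays. Wild-type RNA labelled "wt+met" (wild type with methionine) was the reference of the met28 and cbf1 strains, while the reference of the other 2 strains is labelled "wt" alone. The effect of a deletion and that of the kind of reference cannot be told apart. Per the labels' protocols, colonies came from plates of rich medium with the antibiotic G418. At least 2 biological samples of each strain were then grown in the defined medium YNB at 30 °C and collected at an OD600, a measure of cell density, between 0.8 and 1.0. Whether the deletion strains received methionine is not given in the sources used here.

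Each strain has 1 column of values, so n = 1 throughout, no difference has a replicate check and no test could be made. The values are log ratios whose base is not given, and they are printed as deposited. A log ratio compares 1 gene between the strain and the reference, and it does not say which isozyme is the more abundant. An exact 0 was treated as not measured, which left between 5242 and 5893 measured ORFs per array. A value is called high or low here when it was among the 2.5% of measured ORFs with the highest or with the lowest values of its array. The robust SD of all measured ORFs (the scaled median absolute deviation), a measure of how far genes spread on an array, was 0.0778 on met28, 0.0519 on met31, 0.0608 on met32 and 0.110 on cbf1.

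The deleted gene was the lowest ORF on the met28 array (MET28, -1.294), the fifth lowest on met31 (MET31, -0.32) and the fourth lowest on cbf1 (CBF1, -0.995). On these grounds deletion strain over wild type is the likely direction, since the labels give each channel's dye only as Cy3 or Cy5. On its own array MET32 had a value of 0.012, rank 3487 from the lowest of 5882 measured ORFs. A value this near 0 shows a loss of MET32 in neither direction, so it does not bear out that this array reports a MET32 deletion. The reason was not tested, and met32 below is the name on the label only. The direction of this array is not settled either, and each sign given for it below would turn if the ratio ran the other way.

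PDC6, a minor pyruvate decarboxylase gene, was high in the strain lacking MET28, and no other isozyme was high or low on any array. Of the 7 genes, 1 was high on the met28 array, beside 2.52% of all measured ORFs, and 0 were low, beside 2.54%. On met31 0 were high or low (2.51% and 2.55% of all ORFs), on the array labelled met32 0 (2.58% and 2.52%) and on cbf1 0 (2.51% in both directions). With 7 genes, a count of 0 or 1 says little against these shares, and the size of the PDC6 value is described next. The other 27 values lay between -0.167 and 0.08.

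**Figure D1:**
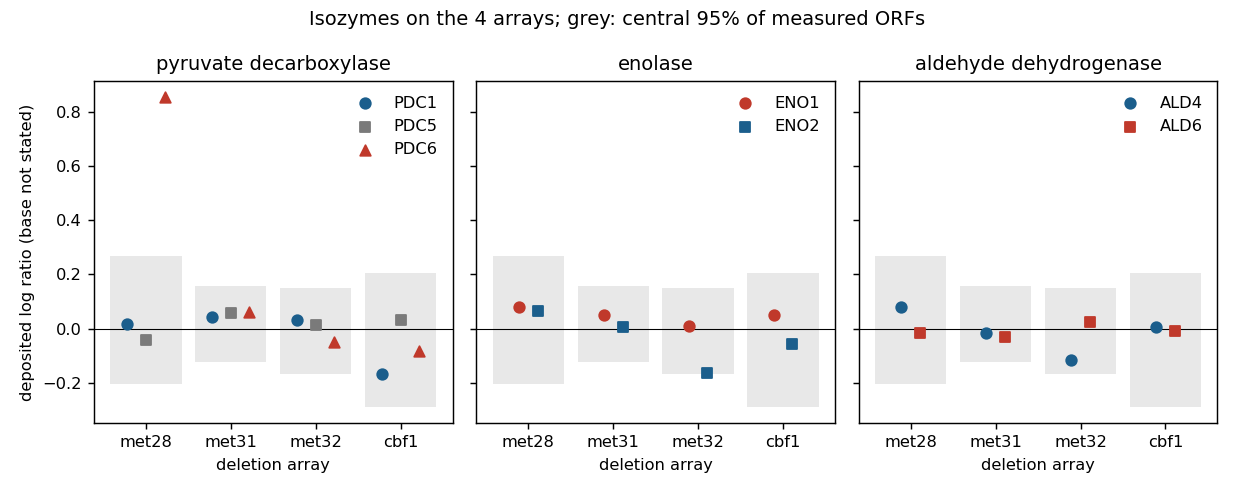
Deposited log ratios (base not stated, vertical axis) of the 7 isozyme genes on the 4 deletion arrays, 1 point per gene and array, with the central 95% of all measured ORFs of each array in grey. PDC6 on the met28 array, at 0.858, is the only point outside the grey ranges, and ENO2 on the array labelled met32, at -0.166, lies at the edge of its range.

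PDC6 was at 0.858 on the met28 array, 0.061 on met31, -0.049 on met32 and -0.082 on cbf1. The met28 value was 11.0 robust SDs above the array's median, and the other 3 were within 1.21 robust SDs of theirs. If the values are log10 ratios, PDC6 RNA was 7.21-fold higher in the met28 strain than in the reference. If they are log2 ratios it was 1.81-fold higher. On the log10 reading 1.95% of the measured ORFs of that array were at least 2-fold higher, PDC6 among them, and on the log2 reading 0.0572% were, without PDC6.

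The high PDC6 value was not shared by the array with the same reference label. On cbf1, also set against wild type with methionine, PDC6 lay 0.94 below its met28 value, and 3597 of 5383 measured ORFs were higher. On met28 only 10 ORFs were higher than PDC6. Of these 10, 6 were measured on cbf1 and 3 of the 6 were high there, beside 2.51% of all measured ORFs of that array. The 6 were picked by their met28 values. The 6, looked at after their values were seen, were MUP1 at 0.929, MMP1 at 0.699, AGP3 at 0.514, SPL2 at 0.154, SEO1 at -0.027 and PHO84 at -0.184 on cbf1. The difference between the 2 arrays has no replicate check. Of the 10 ORFs above PDC6 on met28, 6 were listed at exact 0 on another array, whereas PDC6 was measured on all 4. No intensities were used, so how strong the signals behind these ratios were was not tested.

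The major pyruvate decarboxylase gene PDC1 was at 0.018 on met28, 0.041 on met31, 0.031 on met32 and -0.167 on cbf1. PDC5, which encodes a second major form that is known to rise when PDC1 is lost, was at -0.041, 0.056, 0.014 and 0.03 on the same arrays. PDC6 thus exceeded PDC1 by 0.84 and PDC5 by 0.899 on met28, where the difference between PDC5 and PDC1 was -0.059. If the values are log10 ratios, the strain-to-reference ratio of PDC6 was 6.92 times that of PDC1, and if they are log2 ratios 1.79 times.

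On the other arrays the 3 pyruvate decarboxylase genes lay closer together. PDC6 minus PDC1 was 0.02 on met31, -0.08 on met32 and 0.085 on cbf1. The cbf1 difference came with a PDC1 value of -0.167, the lowest of the 7 genes there and -1.21 robust SDs from the array's median, while PDC6 was itself below 0. On that array PDC5 exceeded PDC1 by 0.197, or 1.8 robust SDs. The 3 genes are similar in sequence, and whether the probes tell their transcripts apart was not tested.

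The enolase genes differed little on the met28 array. ENO1, the form known to be lower on glucose, was at 0.08 there, 0.049 on met31, 0.009 on met32 and 0.05 on cbf1. ENO2, the glucose-induced form, was at 0.064, 0.004, -0.166 and -0.058. ENO1 minus ENO2 was 0.016 on met28, 0.045 on met31, 0.175 on met32 and 0.108 on cbf1. ENO1 was the higher ratio on 4 of 4 arrays as deposited, and on 3 of them if the met32 sign is turned. Only on met32 did the difference exceed 1 robust SD, at 2.88.

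On that array ENO2 lay -2.7 robust SDs from the median, and ENO1 lay 0.18 from it. The limit of the lowest 2.5% on met32 was -0.168, so ENO2 fell just outside. It was inside when exact zeros were kept as values or when only the 4661 ORFs measured on all 4 arrays were used. ENO1 and ENO2 are close to identical in sequence, and whether the array separates them was not tested.

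The aldehyde dehydrogenase genes differed in the opposite sense on met28. ALD6, for the main cytosolic enzyme, was at -0.015 on met28, -0.032 on met31, 0.024 on met32 and -0.01 on cbf1. ALD4, for the main mitochondrial enzyme, was at 0.079, -0.018, -0.118 and 0.007. ALD6 minus ALD4 was -0.094 on met28, -0.014 on met31, 0.142 on met32 and -0.017 on cbf1. The sulfur-poor form had the higher ratio only on the array labelled met32, where ALD4 lay -1.91 robust SDs from the median and ALD6 0.43 from it. With that sign turned the difference was -0.142, and ALD6 was then the lower ratio on 4 of 4 arrays.

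On no array were all 3 differences in the direction known from cadmium. On met28, PDC6 minus PDC1 was 0.84, ENO1 minus ENO2 was 0.016 and ALD6 minus ALD4 was -0.094. As deposited, 2 of the 3 were above 0 on each array, and they ranged from -0.014 to 0.045 on met31, from -0.08 to 0.175 on met32 and from -0.017 to 0.108 on cbf1. On met32 the enolase and aldehyde dehydrogenase pairs had the same sign and the pyruvate decarboxylase pair the opposite one, which holds whichever way that ratio runs.

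**Figure D2:**
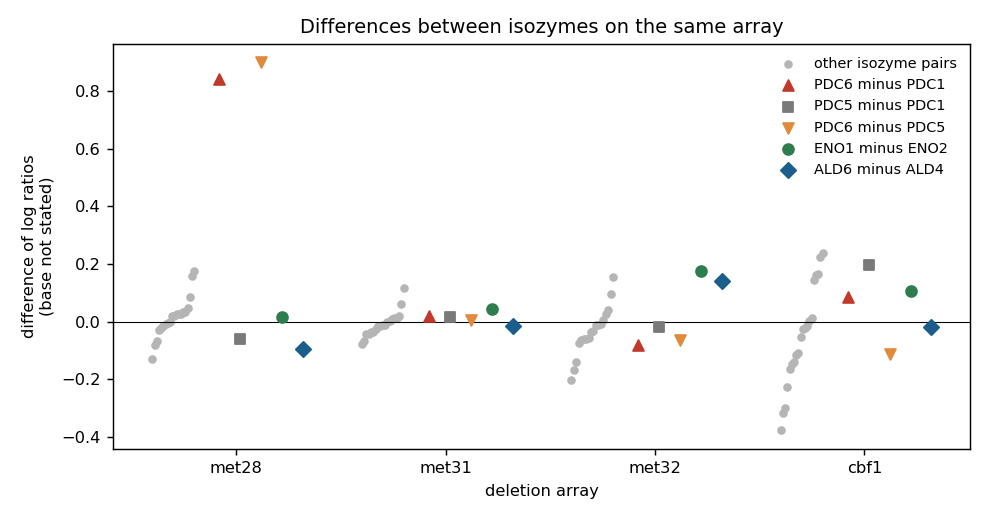
Differences between the log ratios of isozymes on the same array (vertical axis, base not stated), with the 5 differences among the 7 genes as large markers. Those of further pairs of related genes of central carbon metabolism, called other isozyme pairs in the legend, are small light grey points, 1 point per pair. The 2 differences that involve PDC6 on met28, at 0.84 and 0.899, lie above all grey points, whose largest size there is 0.176.

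The same differences were taken for 20 further pairs of related genes of central carbon metabolism, not all of them isozymes in the strict sense. They describe how far related genes part on these arrays. One of the pairs, ALD5 minus ALD4, shares ALD4 with the 7 genes, and several pairs share ADH1 with each other. On met28 all 20 pairs were measured, the median size of their differences was 0.029, and the largest was GPM3 minus GPM1, genes related to phosphoglycerate mutase, at 0.176. PDC6 minus PDC1 was 4.77 times that size. ALD6 minus ALD4 was exceeded in size by 3 of the 20 pairs, or by 2 of 19 without the pair that shares ALD4, and ENO1 minus ENO2 by 16 of 20.

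On met31 the largest difference among the 7 genes, 0.045 for the enolases, was exceeded by 4 of 19 measured pairs, or by 3 of 18 without the pair that shares ALD4. The largest pair was PYC1 minus PYC2, genes of pyruvate carboxylase, at 0.115. On met32 the enolase difference of 0.175 was exceeded by 1 of 18 pairs, GPD2 minus GPD1 of glycerol synthesis at -0.201, and the aldehyde dehydrogenase difference of 0.142 by 3, or by 2 without the pair that shares ALD4. On cbf1 these pairs parted more widely in general, with a median size of 0.145 over 20 pairs, but that array also had the largest robust SD. In robust SDs the median size of the pairs was 0.373 on met28, 0.366 on met31, 0.946 on met32 and 1.32 on cbf1. ADH4 minus ADH1, both alcohol dehydrogenase genes, was at -0.377 on cbf1. The 0.197 of PDC5 minus PDC1 was exceeded by 6 pairs, several of which share ADH1, at 0.182.

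Around the isozymes, 43 genes of 4 lists were counted, beside the shares of all ORFs given above. Of 40 measured on met28 and 40 on cbf1, 0 were high or low. At shares of 2.51% to 2.54% per direction, counts of 0 among 40 genes are near the background. On met31 0 of 40 were high and 1 was low (2.5%, beside 2.55% of all ORFs), namely ALD3, a stress-induced cytosolic aldehyde dehydrogenase gene, at -0.158. On met32 0 of 41 were high (beside 2.58%) and 2 were low (4.88%, beside 2.52%), a difference of about 1 gene. The 2 were TDH1, a glyceraldehyde-3-phosphate dehydrogenase gene, at -0.175, and GCR2, which encodes a coactivator of glycolytic genes, at -0.246.

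Upstream of the isozymes, the 15 genes of glycolysis had a median of 0.048 on met28, beside 0.0015 for all measured ORFs. They ranged from -0.033 to PGK1, the phosphoglycerate kinase gene, at 0.15. PDC1, both enolase genes and both aldehyde dehydrogenase genes lay within this range, PDC5 just below it and PDC6 far above it. On met31 the glycolysis median was -0.02 over 14 measured genes, with HXK1, a hexokinase gene, farthest from 0 at -0.078. On met32 it was -0.025 over 14 genes, and the ENO2 value was close to that of TDH1. On cbf1 it was -0.047, beside -0.034 for all ORFs, with HXK1 at 0.157, and the PDC1 value lay below the lowest glycolysis gene, at -0.153.

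The 11 other genes of ethanol, acetate and acetyl-CoA formation had medians of -0.006 on met28, -0.001 on met31, -0.023 on met32 and -0.104 on cbf1. On met28 their mean was 0.0421, of opposite sign to the median. The members farthest from 0 were ALD2 at 0.226 on met28, ALD3 on met31, the mitochondrial alcohol dehydrogenase gene ADH3 at -0.126 on met32 and ADH4 at -0.195 on cbf1. ALD2 and its tandem copy ALD3 at 0.196 were above 96.6% and 95.5% of the measured ORFs of the met28 array, inside the limit of 0.268. These ratios were higher than those of ALD4 and ALD6 on the same array. The tandem copies are highly similar, and whether their probes separate them was not tested.

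Genes that send pyruvate elsewhere, those of pyruvate dehydrogenase, pyruvate carboxylase and lactate dehydrogenases, had medians of -0.022, -0.048, 0.012 and -0.066 on met28, met31, met32 and cbf1, and on met32 their mean was -0.0015. The values farthest from 0 were PDX1 at -0.054, CYB2 at -0.116, PDA1 at -0.094 and PYC2 at -0.2.

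Relatives and regulators of the isozymes had medians of 0.077 on met28, -0.025 on met31, -0.016 on met32 and -0.003 on cbf1. The met28 median rests on 7 measured genes. Their mean was 0.0243, and the median was 0 when exact zeros were kept as values. The similar enolase-related genes ERR1, ERR2 and ERR3 were at 0.159, 0.114 and 0.077 on met28, and TYE7, THI3, GCR2 and GCR1 at 0.083, -0.028, -0.11 and -0.125. ERR1 was farthest from 0 there, and THI3, which regulates thiamine genes, on met31, at -0.088. GCR2 was farthest on cbf1, at -0.185. PDC2, which encodes an activator of PDC1 and PDC5, was listed at 0 on all arrays but met32, where it was at -0.016.

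**Figure D3:**
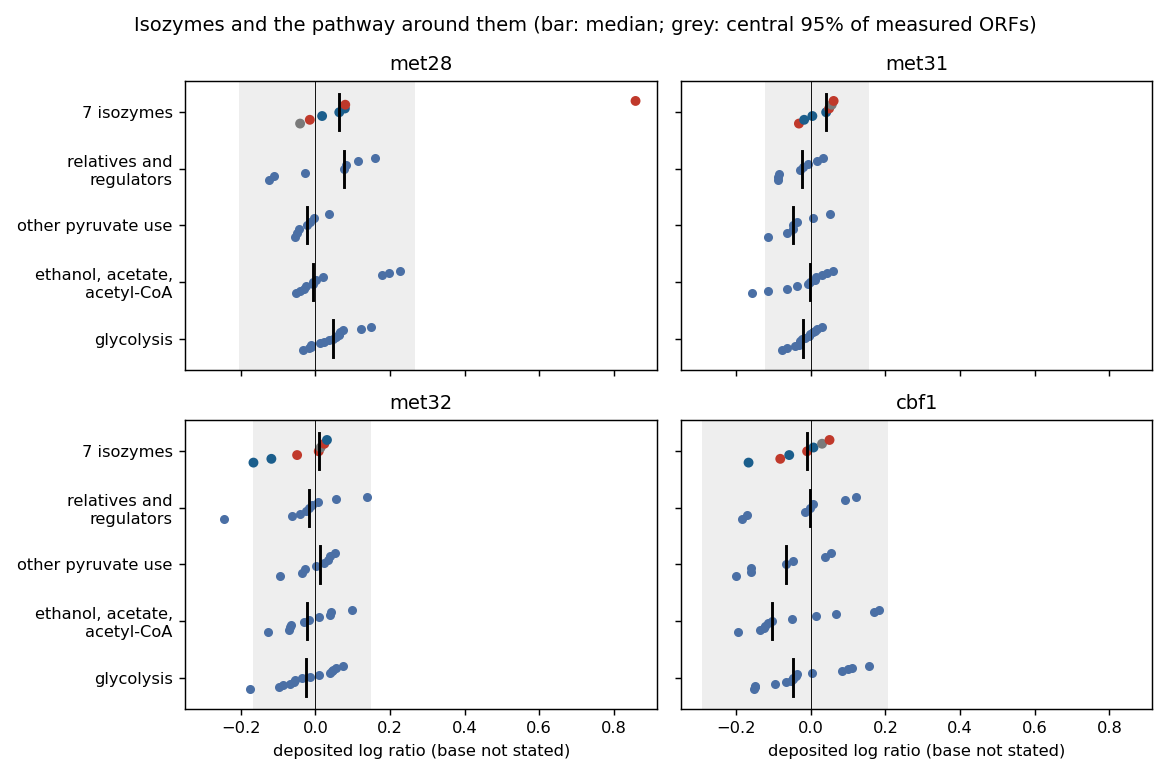
Deposited log ratios (horizontal axis, base not stated) of the 7 isozyme genes and of 4 lists of surrounding genes on each array, 1 point per measured gene, with the list median as a bar and the central 95% of measured ORFs in grey. By construction about 5% of all ORFs lie outside the grey range. Of the list genes ALD3 on met31 and TDH1 and GCR2 on met32 lie below it, 0 of 40 lie outside on met28 and on cbf1, and PDC6 lies far above it on met28.

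The genes beside PDC6 on its chromosome did not share its value. PIL1, which encodes a core protein of the eisosome, a domain of the plasma membrane, was at 0.049 on met28, -0.052 on met31, 0.012 on met32 and -0.024 on cbf1. CTT1, the cytosolic catalase gene on the other side, was at -0.048, -0.128, 0.005 and -0.109. CTT1 was low on met31, where PDC6 was at 0.061, and neither gene overlaps PDC6 in the RefSeq table used for gene order.

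The genes nearest to PDC6 over the 4 arrays were found by the Euclidean distance between values divided by each array's robust SD, among 4118 named genes measured on all 4. They were KAR5 (2.39), CBP2 (3.56), HXT12 (3.9), MIR1 (4.04) and PHO84 (4.23), with the distance in parentheses. Their values on met28 were 0.833, 0.684, 0.632, 0.705 and 1.016. On cbf1 they were at -0.059, 0.037, -0.322, 0.044 and -0.184. PHO84 was high on met31, at 0.243, and HXT12 was low on cbf1, each beside 2.51% of all measured ORFs. PDC6 was neither high nor low on these arrays. KAR5 acts in nuclear fusion, CBP2 in splicing of a mitochondrial intron, and MIR1 and PHO84 encode phosphate carriers of the mitochondrion and the plasma membrane. HXT12 belongs to the hexose transporter family, whose members are similar in sequence. That the 5 are high on met28 follows from how they were chosen.

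**Figure D4:**
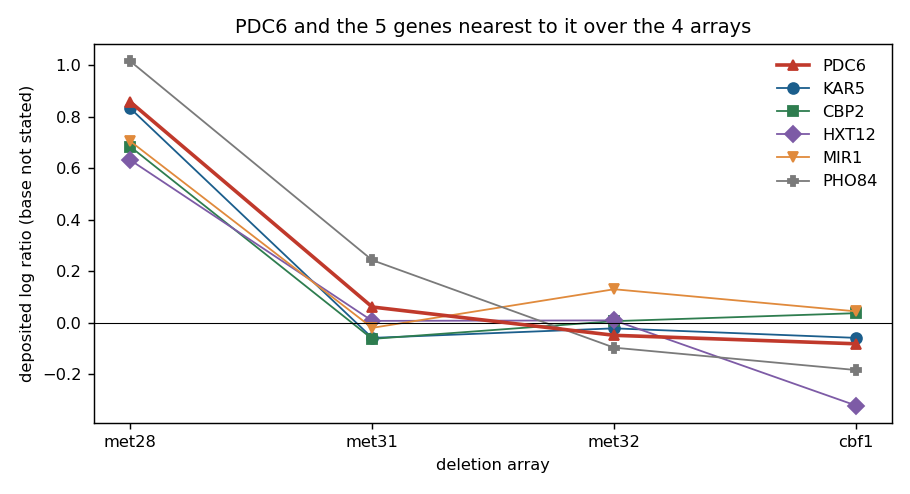
Deposited log ratios (vertical axis, base not stated) of PDC6 and of the 5 genes nearest to it on the 4 deletion arrays, 1 line per gene. All 6 genes lie between 0.632 and 1.016 on met28, and on the other arrays they lie between -0.322 and 0.243.

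Across arrays, the 7 genes moved over very different ranges. As deposited, PDC6 spanned 0.94 between its lowest and highest array, ENO2 0.23, PDC1 0.208, ALD4 0.197, PDC5 0.097, ENO1 0.071 and ALD6 0.056. With the met32 sign turned, the spans of PDC6, PDC1 and PDC5 were as before, and ENO2 spanned 0.224, ALD4 0.136, ENO1 0.089 and ALD6 0.022. The order of the 7 by span was, with either met32 sign, PDC6, then ENO2 and PDC1, then ALD4, PDC5, ENO1 and ALD6. This order depends on the centre and spread of each array. After median centring ALD4 ran from -0.116 to 0.0775 and PDC1 from -0.133 to 0.043, so ALD4 had the wider span. In robust SDs from each array's median, ALD6 ran from -0.58 to 0.43 and ENO1 from 0.18 to 1.01, so ALD6 had the wider span.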

How the data were processed

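The authors deposited 1 signed value per ORF and strain, with at most 3 decimals, here read as log ratios of 2 channels (log10, log2 or natural log). Their base, centring and background correction, and how dye swaps and biological samples were combined, are likewise not given in the sources used. The number of arrays limits the precision, and no intensities were used. Exact zeros, 1018 on met28, 367 on met31, 378 on met32 and 877 on cbf1, were left out. Differences between isozymes were taken on the same array, where centring cancels. Symbols and gene order came from a RefSeq table of assembly R64, which lists 5774 of the 6260 ORFs. The 7 genes, the 20 further pairs and the 4 lists were chosen with earlier results of these data known.

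Named genes are the 7 isozymes, the deleted genes, high or low list genes, the list gene farthest from 0 and the largest other pair on each array, the chromosomal neighbours of an isozyme that was high or low, and the 5 genes nearest to it. Beyond this rule, the genes above PDC6 on met28 that were measured on cbf1 and further relatives and regulators of the isozymes are named. Planned counts of methionine and cysteine residues and of promoter motifs were not run, since sequences were not used here. Python 3.11.15, pandas 2.3.3 and numpy 2.4.6 were used.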

Additional observations from a re-analysis of the deposited data

How the results depend on the processing

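PDC6 stayed high on met28 with limits of 1% and 5%, with zeros kept, over ORFs measured on all 4 arrays and after median centring. The count of low genes on met32 went from 0 to 1, ENO2, with a limit of 5%, with zeros kept, and over ORFs measured on all 4 arrays. With the met32 sign turned, PDC6 minus PDC1 there was 0.08, PDC6 minus PDC5 0.063, ENO1 minus ENO2 -0.175 and ALD6 minus ALD4 -0.142. The log base sets the fold. Read as log2 and natural log ratios, PDC6 on met28 was 1.81-fold and 2.36-fold higher, and its ratio over that of PDC1 was 1.79 and 2.32. Median centring changed the sign of 1 of the 28 gene values, ALD6 on cbf1, and of 2 of the 16 list medians, and list means differed in sign from 2 medians. Dividing by the robust SD left the array with the largest size of each of the 5 differences in place. Of the 5 genes nearest to PDC6, 5 were shared when arrays were not scaled and 2 when zeros were kept as values. The latter setting was chosen after seeing the data, as were centring for counts and lists and the spans with the met32 sign turned. So were the pairs without ALD5 minus ALD4 and the median sizes of pairs in robust SDs. No paired analysis was possible because each strain has 1 column. For the same reason no replicate could be left out.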
